A study of Mus musculus with 16 samples.

Results

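The 9 receptor genes, Cx3cr1, Ccr1, Ccrl2, Cxcr2, Cxcr4, Cmklr1, Fpr1, Fpr2 and Ptafr, were followed in microglia that remained after PLX3397, an inhibitor of the CSF1 receptor. They were chosen by name as receptors for chemokines and other chemoattractants, 9 of the 53850 genes in the table, and 7 of the 9 passed the filter on low values. The 16 libraries came from microglia of the cortex of young C57BL/6J mice, isolated by fluorescence-activated cell sorting. They formed 4 groups of 4: females on PLX3397 chow, males on PLX3397 chow, females on control chow and males on control chow, each for 1 week. All groups shared the strain, and no transgene is named in the labels. Microglia need signalling through the CSF1 receptor to survive, and the series asks why depletion by PLX3397 differed between the sexes. The cells are those still present after the drug, and the gate of the sort and the ages are not given in the sources used here. Whether replicates are separate animals is not given in the labels, so p-values measure the spread between these samples, which may be technical. The deposited sample numbers run in blocks by sex and, within each sex, by chow. Whether they follow the order of handling is not given, and such an order could not be told apart from sex or chow.

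Chemoattractant receptors are membrane proteins of the G protein-coupled family that bind a chemokine, lipid or peptide outside the cell. They signal through Gi proteins to phosphoinositide 3-kinase and Rac, which reshape the actin cytoskeleton so that the cell moves up the ligand's gradient. Cx3cr1 binds fractalkine, made by neurons, and is a hallmark of microglia. Cxcr2, Fpr1 and Fpr2 are best known from neutrophils, Ccr1 and Cxcr4 from many leukocytes, and Ptafr is the receptor for platelet-activating factor, a lipid. Ccrl2 is an atypical member that binds chemerin without known signalling of its own, and Cmklr1 is the receptor that signals for chemerin.

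On PLX3397, Cx3cr1 and Ccr1 were lower and Ccrl2 and Cxcr4 higher than on control chow in both sexes, while Ptafr, Cxcr2 and Cmklr1 did not pass the test in either. The windows before the start sites of the first 4 genes are shown because they are the genes whose transcripts changed. The sequences are the 250 bases before the first annotated start site in RefSeq (mouse build GRCm38.p6), 5' to 3' on the gene's strand, with capitals marking matches to the motifs named after them.
Cx3cr1, chr9:120068297-120068546, minus strand: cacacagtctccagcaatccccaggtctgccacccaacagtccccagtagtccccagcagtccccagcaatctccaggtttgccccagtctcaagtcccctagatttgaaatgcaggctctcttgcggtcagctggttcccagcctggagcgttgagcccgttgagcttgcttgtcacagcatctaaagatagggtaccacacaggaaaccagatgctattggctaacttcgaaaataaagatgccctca
Ccr1, chr9:123968693-123968942, minus strand: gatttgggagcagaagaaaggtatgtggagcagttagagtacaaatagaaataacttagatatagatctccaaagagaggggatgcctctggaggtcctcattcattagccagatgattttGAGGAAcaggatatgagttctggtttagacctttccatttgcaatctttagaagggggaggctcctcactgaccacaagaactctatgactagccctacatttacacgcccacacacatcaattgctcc
Ccrl2, chr9:111057519-111057768, minus strand: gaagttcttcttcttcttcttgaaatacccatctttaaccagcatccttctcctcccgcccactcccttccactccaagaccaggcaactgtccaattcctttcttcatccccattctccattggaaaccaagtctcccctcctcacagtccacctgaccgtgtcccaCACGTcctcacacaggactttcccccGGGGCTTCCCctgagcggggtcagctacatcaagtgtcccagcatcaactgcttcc
Cxcr4, chr1:128592300-128592549, minus strand: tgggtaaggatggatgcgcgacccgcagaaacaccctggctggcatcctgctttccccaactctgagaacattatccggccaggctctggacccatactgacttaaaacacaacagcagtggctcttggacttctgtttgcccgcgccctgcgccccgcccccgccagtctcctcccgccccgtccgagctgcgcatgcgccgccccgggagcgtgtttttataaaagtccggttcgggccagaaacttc
Motifs were searched on both strands, and all 9 genes had a window in RefSeq. The Ccrl2 window held an NF-kB motif centred at -51 from the start site, present in 3.9% of 32851 windows of this length. It also held ACGTG, the hypoxia response core, on the opposite strand at -80, present in 16.6% of windows. Ccrl2 had 3 annotated start sites, and the windows before start sites 2 and 3, not shown, held ACGTG but no NF-kB motif. The Ccr1 window held GAGGAA, the PU.1 core, at -126, present in 23.3% of windows. The AP-1 motif TGANTCA was in 6.75% of all windows and in none of the 4 shown, and the windows of Cx3cr1 and Cxcr4 held none of the 4 motifs. Outside these 4 genes, GAGGAA was found before Cxcr2, Cmklr1, Fpr2 and Ptafr, and ACGTG on both strands at -142 before Cmklr1, which was not called. A match is a string of letters and not a measured binding site.

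Values are the deposited normalised read counts per gene, and all changes are log2 fold changes ± SE of log2(value + 1), PLX3397 minus control chow unless stated. Adjusted p-values are from limma with Benjamini-Hochberg adjustment over 19594 genes that reached a value of 10 in 4 or more libraries, and a gene was called at an adjusted p under 0.05. Library values summed to 32641505 to 44162201, and the size of the smallest steps between low values puts the reads behind a library at about 22100000 to 78600000. Microglia markers were high in every library. P2ry12, a purinergic receptor, was at 74599 to 99746 in females on PLX3397, 48658 to 70892 in males on PLX3397, 234689 to 278596 in female controls and 236323 to 262919 in male controls. The sum of 12 microglia markers (Cx3cr1 not among them) was 1675847 to 1965609 in females on PLX3397 and 1066654 to 1591203 in males on PLX3397, against 2351041 to 2992177 in female controls and 2516462 to 2718516 in male controls. In such bulk libraries, fewer cells of a type and less RNA per cell cannot be told apart. A pair of libraries stood apart. Male control replicate 4 had Xist at 515.7, against at most 31.4 in the other male libraries and 5542 to 10451 in females. Male PLX3397 replicate 3 had the neutrophil marker S100a9 at 18393, against 2951 to 4833 in the other males on PLX3397.

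The level of the receptors spanned several orders of magnitude. Per kilobase of exon, Cx3cr1 came first in all 4 groups, with means of 54575 in females on PLX3397, 36710 in males on PLX3397, 75484 in female controls and 73545 in male controls. Ptafr came next, at 1741 and 1578 per kilobase in females and males on PLX3397, against 1181 and 1100 in female and male controls. Ccrl2 followed in every group, and the ranges of these 3 genes overlapped in no group. Among controls the ranges of Ccr1 and Cmklr1 overlapped in both sexes, and in female controls so did those of Ccrl2 and Ccr1. On PLX3397, Cmklr1 stood above Ccr1 without overlap in both sexes. Cx3cr1 made up 95% ± 1 of the summed receptor level per kilobase in females on PLX3397 and 92.9% ± 1.86 in males on PLX3397, against 97.4% ± 0.0712 in female controls and 97.3% ± 0.0925 in male controls (SD, n = 4 each). The share of Ptafr was 3.06% and 4.06% in females and males on PLX3397, against 1.52% and 1.45% in female and male controls. Cxcr4, Fpr1 and Fpr2 were the last 3 in every group. On PLX3397 the ranges of Cxcr2 and Ccr1 overlapped in both sexes.

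**Figure D1:**
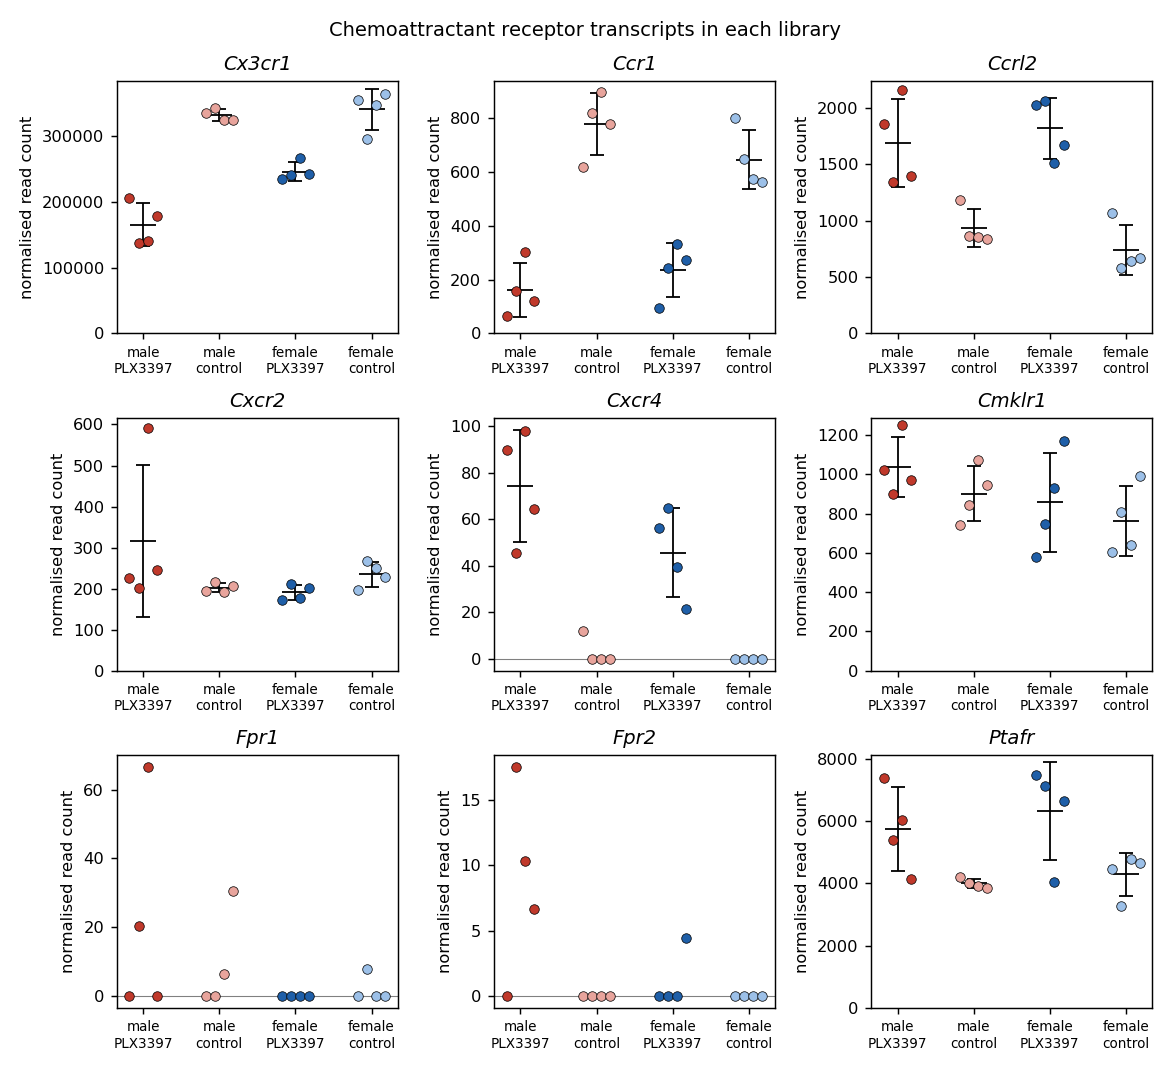
Normalised read counts of the 9 receptors, 1 panel a gene and 1 point a library, in the 4 groups (n = 4 each). Lines and bars are the mean ± SD, drawn only where no library of the group is at 0. Cx3cr1 and Ccr1 sit lower, and Ccrl2 and Cxcr4 higher, on PLX3397 than on control chow in both sexes, without overlap.

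In males, 4 of the 7 tested receptors were called, 2 lower and 2 higher. Over all tested genes 11.7% were called (7.52% lower and 4.16% higher, 1474 and 815 genes). In females the same 4 receptors were called in the same directions, where 5.34% of all genes were called (2.67% in each direction, 523 lower and 524 higher). The median change of the 7 receptors was 0.49 in males and 0.15 in females, beside 0.02 and 0.00 over all genes. With all libraries scaled to equal totals, the split in males was 916 lower and 1346 higher and the median of all genes 0.18. The 4 receptors kept their directions and calls under that scaling in both sexes. Cxcr4 entered through the filter with its PLX3397 libraries and so had to differ, which leaves 3 called of the other 6. The groups of the 4 receptors did not overlap in either sex. Leaving out Cxcr4, this held for 3 of the other 6, beside 17.6% of all genes in males and 10.4% in females. Without both libraries that stood apart, 3 of the 4 were still called in males and all 4 in females, Cxcr4 among them in each sex.

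Cx3cr1, the fractalkine receptor, had 205055, 137679, 139819 and 178963 normalised read counts in males on PLX3397, against 335033, 342484, 324014 and 323750 in male controls. In females it had 234383, 240750, 266070 and 242232 on PLX3397, against 355006, 294471, 346529 and 364213 on control chow. Every library on PLX3397 was below every control library of its sex, and the 4 males on PLX3397 were the 4 lowest of all 16. The change was -1.02 ± 0.104 in males (2.03-fold lower, adjusted p = 6.93e-06) and -0.46 ± 0.104 in females (1.38-fold lower, adjusted p = 0.0125). The gene still ranked among the most abundant: 9th to 11th in females on PLX3397, 11th to 15th in males on PLX3397 and 5th to 7th in the control groups. The annotated span of Cx3cr1 overlaps 9 other genes, among them the antisense gene Gm33858 (at most 8022 in a library). The library kit does not mark strand, so reads from the antisense gene and Cx3cr1 cannot be told apart.

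The fall of Cx3cr1 was also read against microglial genes of the same library. As a percentage of the sum of the 12 microglia markers it was 12.6 ± 1.18 in males on PLX3397 and 12.6 ± 0.156 in male controls (exact permutation p = 1). In females it was 13.4 ± 0.75 on PLX3397 and 12.6 ± 1.17 on control chow (exact permutation p = 0.343, adjusted p = 0.549 over 8 such tests). The groups overlapped in both sexes, so this ratio did not separate the chows. Relative to Csf1r, the gene of the receptor that PLX3397 inhibits, it was 47.3% ± 1.61 in males on PLX3397, against 65.3% ± 2.59 in male controls. The groups did not overlap, and 0.0286 is the smallest two-sided exact permutation p that 4 against 4 allows (adjusted p = 0.229). In females the percentage of Csf1r was 54 ± 5.24 on PLX3397 and 63.5 ± 4.67 on control chow (exact permutation p = 0.0857, adjusted p = 0.229).

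Ccr1, a receptor for the chemokines Ccl3 and Ccl5 among others, fell furthest. It had 65.7, 155.7, 303.1 and 120.8 normalised read counts in males on PLX3397, against 618.6, 817.7, 894.6 and 777.3 in male controls. Females had 95.1, 241.7, 333.2 and 274.0 on PLX3397, against 798.1, 645.7, 573.4 and 560.0 on control chow. The highest library on PLX3397 lay under the lowest control in each sex. The change was -2.46 ± 0.4 in males (5.5-fold lower, adjusted p = 0.000579) and -1.57 ± 0.4 in females (2.97-fold lower, adjusted p = 0.0278). In females the call was lost without PLX3397 replicate 1 (-1.18, adjusted p = 0.0866), without PLX3397 replicate 2 (adjusted p = 0.0537) and without any 1 of the 4 female controls (adjusted p = 0.0504 to 0.085).

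Ccrl2, the atypical chemerin-binding receptor, moved the other way. It had 1854, 1344, 2153 and 1393 normalised read counts in males on PLX3397, against 1181, 860.9, 850.6 and 839.8 in male controls. In females it had 2026, 2060, 1507 and 1669 on PLX3397, against 1066, 575.9, 643.1 and 671.8 on control chow. In both sexes replicate 1 was the highest control and still under every library on PLX3397. The change was 0.84 ± 0.205 in males (1.79-fold higher, adjusted p = 0.0121) and 1.33 ± 0.205 in females (2.51-fold higher, adjusted p = 0.000751). Without both libraries that stood apart, the male change was 0.67 and not past the test (adjusted p = 0.105).

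Cxcr4, the receptor for Cxcl12, appeared almost only on PLX3397. It had 89.9, 45.4, 97.9 and 64.4 normalised read counts in males on PLX3397, against 11.9, 0, 0 and 0 in male controls. In females it had 56.2, 64.8, 39.6 and 21.7 on PLX3397, against 0 in all 4 control libraries. The gene passed the filter on low values through the PLX3397 libraries, and its levels were low even there. The difference in log2(value + 1) was 5.25 ± 0.745 in males and 5.43 ± 0.745 in females, and because of that filter no p-value is read from it. With controls at 0 this number depends on the constant added: with 0.5 and 5 in place of 1 it was 6.01 and 3.5 in males and 6.41 and 3.25 in females, and no fold is given.

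Cxcr2, a receptor for neutrophil-attracting chemokines, did not pass in either sex. It had 225.2, 202.0, 592.4 and 246.3 normalised read counts in males on PLX3397, against 194.9, 215.5, 191.0 and 207.2 in male controls. In females it had 172.8, 211.0, 177.8 and 201.1 on PLX3397, against 196.6, 266.4, 249.8 and 227.6 on control chow. The groups overlapped in both sexes, and replicate 3 of the males on PLX3397, the library high in S100a9, lay far above the other 15. The change was 0.50 ± 0.268 in males (95% interval -0.07 to 1.06, adjusted p = 0.279) and -0.30 ± 0.268 in females (-0.86 to 0.27, adjusted p = 0.655). Without that library it was 0.15 in males (adjusted p = 0.712).

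Ptafr, the receptor for platelet-activating factor, was second in level. It had 7385, 5401, 6031 and 4139 normalised read counts in males on PLX3397, against 4210, 4023, 3918 and 3852 in male controls. In females it had 7495, 7141, 4049 and 6640 on PLX3397, against 4466, 3281, 4786 and 4651 on control chow. In each sex, 1 library on PLX3397 lay within the control range and the others lay above all controls. The change was 0.49 ± 0.193 in males (95% interval 0.08 to 0.90, adjusted p = 0.123) and 0.54 ± 0.193 in females (0.13 to 0.94, adjusted p = 0.141). It passed in 3 of 27 alternatives in males and 1 of 27 in females. Over these, the change was 0.36 to 0.65 in males (adjusted p = 0.0362 to 0.326) and 0.41 to 0.74 in females (adjusted p = 0.0153 to 0.322). The passing ones were without the 1 low library in each sex, and in males also equal totals and quantile normalisation.

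Cmklr1, the signalling chemerin receptor, averaged 1036 ± 152.6 in males on PLX3397 and 901.8 ± 141.7 in male controls (SD, n = 4 each). In females it averaged 856.7 ± 253.6 on PLX3397 and 760.8 ± 176.9 on control chow. Its groups overlapped in both sexes. The change was 0.20 ± 0.213 in males (95% interval -0.25 to 0.65, adjusted p = 0.627) and 0.15 ± 0.213 in females (-0.30 to 0.60, adjusted p = 0.804).

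The formyl peptide receptors Fpr1 and Fpr2, which sense bacterial and mitochondrial peptides, were too low to be tested. Fpr1 was at 0, 20.5, 66.6 and 0 in males on PLX3397, against 0, 0, 6.57 and 30.5 in male controls. It was at 0 in the 4 females on PLX3397, against 0, 7.95, 0 and 0 in female controls. Fpr2 was at 0, 17.5, 10.3 and 6.66 in males on PLX3397 and at 0, 0, 0 and 4.42 in females on PLX3397, and it was listed at 0 in all 8 control libraries. The highest value of Fpr1 was in the library high in S100a9.

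**Figure D2:**
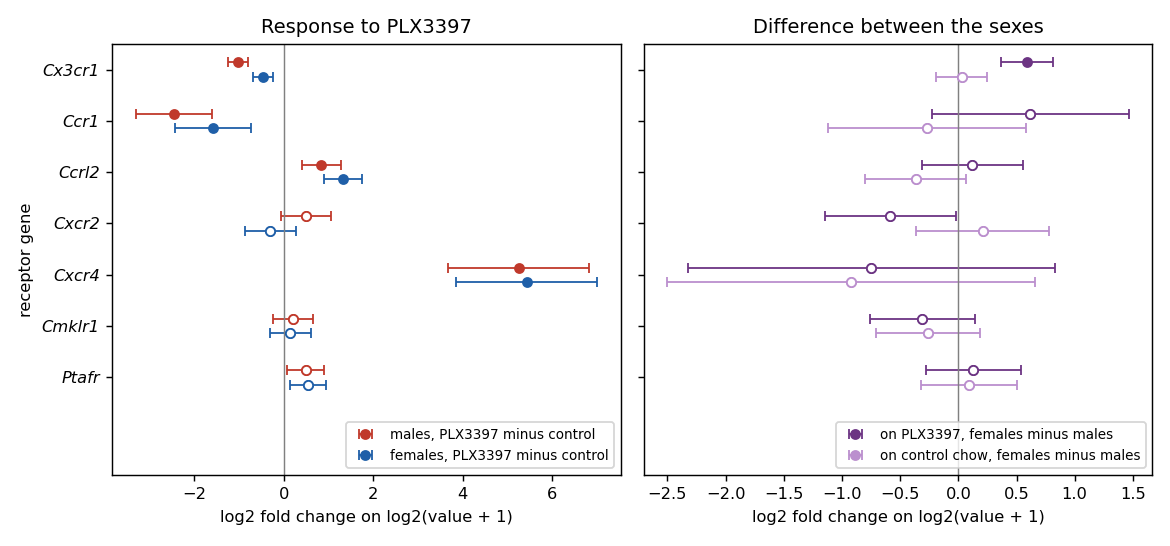
Left, log2 fold changes on PLX3397 against control chow in females and males for the 7 tested receptors. Right, females minus males on each chow. Points are limma estimates with 95% intervals, filled where the adjusted p is under 0.05: Cx3cr1, Ccr1, Ccrl2 and Cxcr4 at left in both sexes, and Cx3cr1 at right on PLX3397. Cxcr4 passed the filter on low values through its PLX3397 libraries, so its fill is not read as a test. Its position at left depends on the constant added.

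The sexes were compared on each chow, and their responses were compared with each other. On PLX3397, Cx3cr1 averaged 245859 ± 13898 in females and 165379 ± 32554 in males (SD, n = 4 each), without overlap. Females were higher by 0.59 ± 0.104 (1.51-fold, adjusted p = 0.00695). Cx3cr1 was the 1 called receptor of 7 there, beside 5.43% of all genes (4.28% higher and 1.15% lower in females, 838 and 226 genes). With equal library totals the split was 195 higher and 374 lower in females, the median of all genes was -0.22, and Cx3cr1 was still higher in females, by 0.39 (adjusted p = 0.00938). It was not past the test under quantile normalisation (0.28, adjusted p = 0.0734) or when the fit held these 2 groups alone (0.59, adjusted p = 0.0734). Of the 12 microglia markers, 9 were also higher in females than in males on PLX3397 and 0 lower, and 5 were higher with equal library totals. As a percentage of their sum, Cx3cr1 was 13.4 ± 0.75 in females and 12.6 ± 1.18 in males (exact permutation p = 0.343, adjusted p = 0.549). As a percentage of Csf1r it was 54 ± 5.24 and 47.3 ± 1.61 (exact permutation p = 0.0571, adjusted p = 0.229). The other 6 receptors had adjusted p of 0.213 to 0.762, with changes from -0.75 ± 0.745 for Cxcr4 to 0.62 ± 0.4 for Ccr1.

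On control chow Cx3cr1 averaged 340055 ± 31235 in females and 331320 ± 9112 in males (SD, n = 4 each), and the difference was 0.03 ± 0.104 (limma adjusted p = 0.997). None of the 7 receptors was called between control females and males by limma, also at an unadjusted p under 0.05, beside 0.0663% of all genes called (0.0153% higher and 0.051% lower in females). The response of females minus that of males was 0.56 ± 0.147 for Cx3cr1 (limma unadjusted p = 0.00158, adjusted p = 0.229). For Ccr1 it was 0.89 ± 0.566, for Ccrl2 0.49 ± 0.29 and for Cxcr2 -0.79 ± 0.378, with adjusted p of 0.49 to 0.625, and for Cxcr4, Cmklr1 and Ptafr the adjusted p was 0.977. The call rate over all genes was 0% by limma, and with voom weights the count was also 0. At an unadjusted p under 0.05 there were 2010 genes, with Cx3cr1 the 1 receptor among them. The difference between sexes in the response was thus not established for any of the 7 tested receptors at this spread.

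Neutrophil transcripts moved with the drug and with sex. Of 12 tested neutrophil markers, 9 were higher on PLX3397 in males, beside 4.16% of all genes, and 6 in females, beside 2.67%. On PLX3397, 9 of the 12 were lower in females than in males, beside 1.15% of all genes. Retnlg reached 10 only in males on PLX3397 (45.3 to 399.0), and Ly6g only there and in female PLX3397 replicate 3 (18.1). Both entered through the filter with the males on PLX3397, so they had to differ from the other groups, like Cxcr4. On control chow 5 of the 12 were lower in females, beside 0.051% of all genes, with a median of -3.33. Without Csf3r, which was high in every library, the sum of 13 neutrophil markers was 867.4 to 3292 in females on PLX3397 and 10480 to 75122 in males on PLX3397, against 3.87 to 13 in female controls and 339.6 to 3474 in male controls. The defining marker Ly6g was at 0 to 18.1 in females on PLX3397 and 24.5 to 92.1 in males on PLX3397, and at 0 in all 8 controls. Cxcr2 was at 196.6 to 266.4 in female controls, where S100a9 was at 0 in all 4 libraries. Cxcr4 was at 21.7 to 64.8 in females on PLX3397 with S100a9 at 147.4 to 711.7, and at 0 to 11.9 in male controls with S100a9 at 102.0 to 828.5. The part of neutrophil transcripts in the values of any receptor was not tested. The sum of 12 monocyte markers was 722.4 to 1294 in females and 1429 to 6913 in males on PLX3397, against 733.8 to 924.3 in female and 689.6 to 1075 in male controls. Of the 8 tested monocyte markers, 1 was higher in males, beside 4.16% of all genes, and 0 in females, beside 2.67%. In each sex 0 were lower. Of 11 markers of border-associated macrophages, 7 were lower in males, beside 7.52% of all genes, and 5 in females, beside 2.67%, with sums of 19561 to 23099 in females and 19478 to 23885 in males on PLX3397, against 27558 to 33919 and 26235 to 29441 in female and male controls. Their part in the results was not tested.

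**Figure D3:**
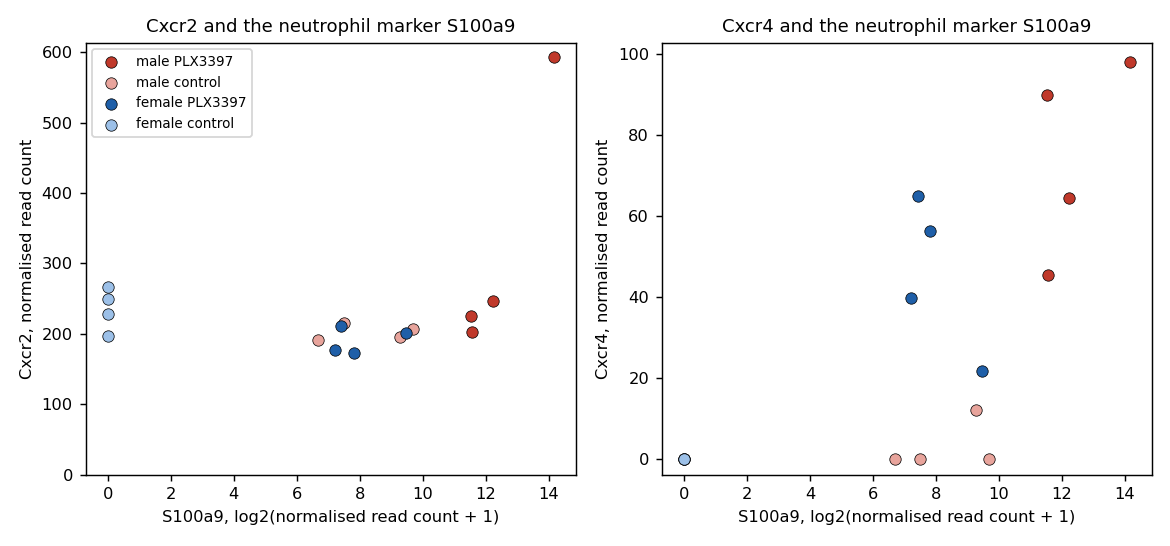
Normalised read counts of Cxcr2 and Cxcr4 against log2(S100a9 + 1), 1 point a library, coloured by group (the 4 female controls coincide at 0 in the Cxcr4 panel). Cxcr2 lies between 172.8 and 266.4 in every library except the male PLX3397 library with the most S100a9, at 592.4, and Cxcr4 is at 21.7 to 97.9 on PLX3397, above every control.

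Among 34 other chemokine and chemoattractant receptors in the table, 20 were tested and 10 were at 0 in every library, Cxcr1 and Ccr8 among them. Males on PLX3397 had 1 higher, 3 lower and 16 that did not pass (median -0.71), and females on PLX3397 had 3 higher, 2 lower and 15 that did not pass (median -0.60). Over all genes 4.16% were higher and 7.52% lower in males, and 2.67% in each direction in females, so that 1 of 20 higher in males is near the share of all genes. C3ar1, the receptor for complement fragment C3a, averaged 28516 ± 4858 in males on PLX3397 and 12258 ± 1147 in male controls, a rise of 1.21 ± 0.114 (adjusted p = 3.31e-06). In females it averaged 42487 ± 4770 on PLX3397 and 12269 ± 1050 on control chow, a rise of 1.79 ± 0.114 (adjusted p = 2.2e-07). C5ar1, the receptor for complement fragment C5a, averaged 7205 ± 1915 in males on PLX3397 and 8321 ± 999.9 in male controls and did not pass. In females it averaged 13760 ± 3163 on PLX3397 and 7876 ± 1493 on control chow, a rise of 0.80 ± 0.199 (adjusted p = 0.0249) that was lost in 4 of 27 alternatives. The difference between the responses of males and females was called for none of the 20 by limma, nor with voom weights for any gene.

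C5ar2, a C5a receptor, fell by 1.32 ± 0.163 in males (adjusted p = 4.71e-05) and was at -0.52 in females (adjusted p = 0.0778). Gpr183, a receptor for oxysterols, fell by 0.88 ± 0.135 in males (adjusted p = 0.000345) and was at -0.18 in females (adjusted p = 0.552). Cxcr3 rose by 1.05 ± 0.294 in females (adjusted p = 0.0493), a call kept in 9 of 27 alternatives. In males Cxcr3 was at 0.28 (adjusted p = 0.623). Ccr1l1, a close relative of Ccr1, was at 0 to 32.8 in females on PLX3397 and 63.3 to 127.5 in female controls. Its log2(value + 1) fell by 4.51 ± 0.888 in females (adjusted p = 0.00518). The change in males was -2.45 ± 0.888 (adjusted p = 0.0912). The female value depends on the constant added, and reads shared between Ccr1 and Ccr1l1 could not be told apart. On PLX3397, C3ar1, C5ar1 and Gpr183 were higher in females than in males, by 0.58, 0.95 and 0.57 (adjusted p = 0.0103, 0.0147 and 0.0256), and these calls were kept in 24, 25 and 19 of 27 alternatives. In all, 4 of the 20 were higher in females there, beside 4.28% of all genes, and 1 of 20 with equal library totals. Ccr2, the monocyte chemokine receptor, was at 141.1 to 282.1 in females and 83.9 to 256.2 in males on PLX3397, against 252.7 to 526.7 and 204.3 to 339.2 in female and male controls, and did not pass.

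**Figure D4:**
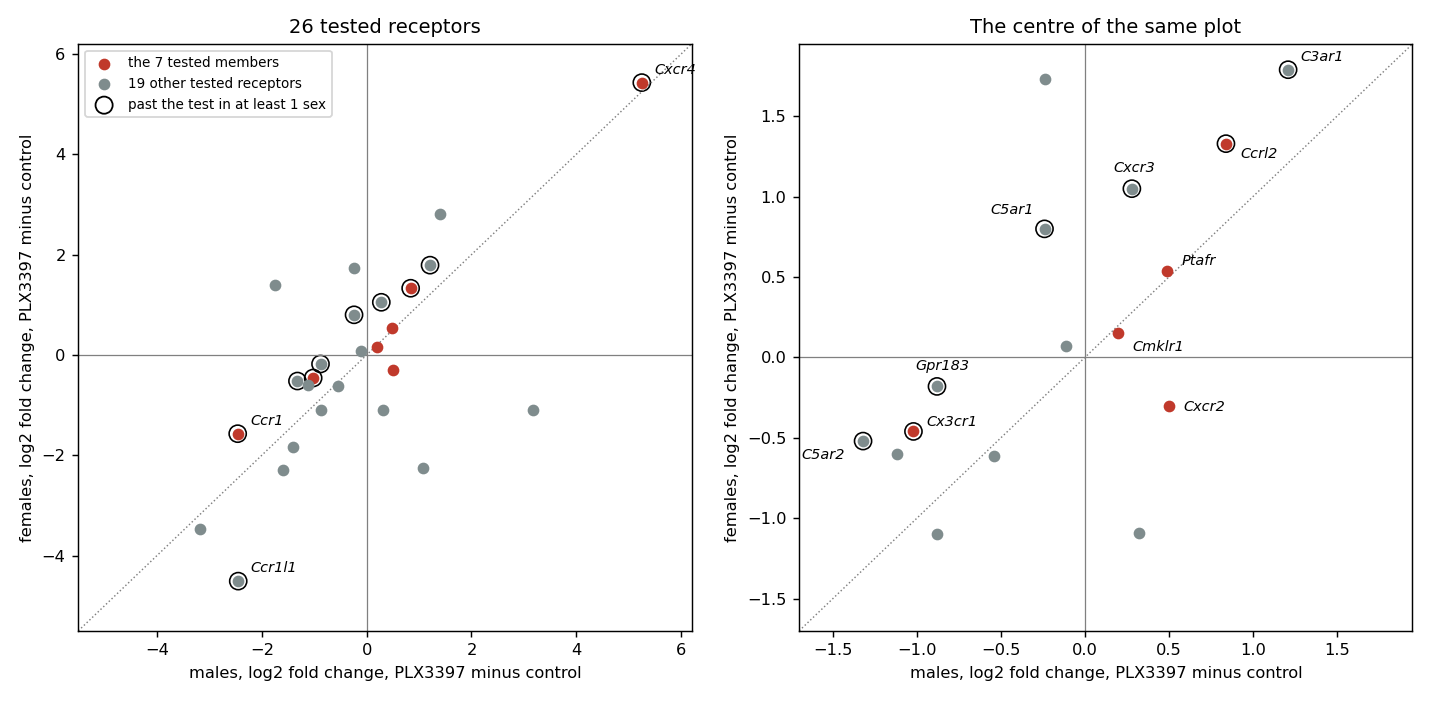
Log2 fold changes on PLX3397 against control chow in males (x axis) and females (y axis) for 26 of the 27 tested receptors (1 is not drawn), in full and enlarged at the centre. Ringed genes were called in at least 1 sex: Cxcr4, Ccrl2, C3ar1 and Cxcr3 lie above 0 in both sexes, Cx3cr1, Ccr1, C5ar2, Gpr183 and Ccr1l1 below, and C5ar1 above in females and below in males. Cxcr4 had to differ because of the filter on low values, so its ring is not read as a test.

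Transcripts of the ligands were measured in the same libraries. Of 16 tested ligand genes, males on PLX3397 had 7 higher, 1 lower and 8 that did not pass (median 1.40), and females on PLX3397 had 6 higher, 0 lower and 10 that did not pass (median 1.50). Over all genes 4.16% were higher and 7.52% lower in males, and 2.67% in each direction in females. Ccl3, which binds Ccr1, averaged 3773 ± 403.6 in males on PLX3397 and 562.0 ± 84.1 in male controls. In females it averaged 4447 ± 2207 on PLX3397 and 709.1 ± 220.0 on control chow (changes of 2.75 in males and 2.60 in females). Ccl4 averaged 5946 ± 997.6 in males on PLX3397 and 678.6 ± 141.5 in male controls, and rose by 3.14 in males and 3.05 in females. The other ligands of Ccr1 did not all rise. Ccl9 averaged 2897 ± 331.0 in males on PLX3397 and 4339 ± 559.3 in male controls, a fall of 0.58 (adjusted p = 0.0154), and was at -0.36 in females (adjusted p = 0.203). Ccl6 was at -0.11 in males (adjusted p = 0.653) and 0.26 in females (adjusted p = 0.303), and Ccl5 rose by 5.02 in males (adjusted p = 0.000226) and was at 1.93 in females (adjusted p = 0.17). Mif, a cytokine that binds Cxcr2 and Cxcr4, rose by 0.90 in males and 1.03 in females. Fractalkine itself, Cx3cl1, was low in the sorted cells, at 0 to 137.2 over all libraries, and Cxcl12 was at 0 to 88.2. Camp, a granule peptide that binds Fpr2 and is also on the neutrophil list, was at 47 to 282.8 in females and 1106 to 8153 in males on PLX3397, against 0 to 4.97 and 0 to 426.0 in female and male controls.

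Genes of the signalling machinery were counted in the same way, on a list that also held proteases such as Adam10 and cathepsin S. Of 40 tested, males on PLX3397 had 1 higher, 16 lower and 23 that did not pass (median -0.25), and females on PLX3397 had 1 higher, 7 lower and 32 that did not pass (median -0.18). Over all genes 7.52% were lower in males and 2.67% in females, with medians of 0.02 and 0.00. With equal library totals, which moved the median of all genes in males to 0.18, the list had 3 higher and 15 lower in males (median -0.09) and 1 higher and 7 lower in females. Elmo1, part of a Rac activator, fell by 0.95 ± 0.101 in males (adjusted p = 1.07e-05) and 0.77 ± 0.101 in females (adjusted p = 0.000191). Pik3cg, the phosphoinositide 3-kinase subunit that G proteins activate, fell by 1.06 ± 0.147 in males (adjusted p = 0.000137) and 0.58 ± 0.147 in females (adjusted p = 0.0256). Gna15, a G protein subunit that couples to many chemoattractant receptors, fell by 1.13 in males and 0.67 in females, and the arrestin gene Arrb2 by 0.66 and 0.51. Gnai2, a Gi subunit, fell by 0.44 in males (adjusted p = 0.0129). Adam10, a protease that sheds fractalkine, fell by 0.94 in males. The listed genes that rose were the kinase gene Fgr in males (1.81, adjusted p = 0.0427) and the cathepsin S gene Ctss, a protease gene, in females (0.52, adjusted p = 0.00693). On PLX3397, 7 of the 40 were higher in females than in males, beside 4.28% of all genes, among them Cdc42 (0.56) and Rac1 (0.59). With equal library totals, 3 were higher and 1 lower in females.

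Over the 16 libraries, which include the difference between the chows and between the sexes, Ccrl2 and Cxcr4 varied most alike among the tested receptors (Pearson r = 0.92 of log2(value + 1)). Ccr1 and Cxcr4 varied most oppositely (r = -0.85), Cx3cr1 and Ccr1 had r = 0.73, and Cmklr1 and Ptafr r = 0.00. Among 13523 named genes with a mean of at least 50, those most like Cx3cr1 were Lpcat2, Ubash3b and Cmtm6 (r = 0.982, 0.981 and 0.980). Lrrc4, Bank1 and Armc3 were most like Ccr1 (0.942, 0.939 and 0.933), and Cd83, Lsp1 and Slamf8 most like Ccrl2 (0.927, 0.923 and 0.923). Mmp12, Rassf4 and Gpr162 were most like Cxcr4 (0.974, 0.964 and 0.963), and Dram2, Arl4c and Acox3 most like Ptafr (0.917, 0.877 and 0.874). For Cmklr1 and Cxcr2 the closest genes were less alike, Dhx40 at 0.800 and Haus5 at 0.827. Male PLX3397 replicate 3 was the highest library in both Cxcr2 (592.4) and Haus5 (2191, against 962.9 to 1527 in the others). The r of Cxcr2 and Haus5 without that library was not computed. All these points share their libraries and scaling, and the values are descriptions without a test.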

How the data were processed

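RNA from 16 samples of sorted cortical microglia was sequenced. Per the labels' protocols, cDNA came from a low-input SMARTer kit and libraries from Nextera XT. The deposited table holds a signal per gene and library, read counts normalised by the authors with a formula not given in the sources used here. Tools in the submitters' processing notes were STAR 2.7.9a, Salmon 1.5.2, featureCounts 2.0.1, Subread and bcl2fastq 2.19.1, and the build was GRCm39; their roles are not stated. Whole reads could not be recovered gene by gene, so no count model or counting interval was used. Reads per library were estimated from the step between low values, and precision is given as SE (median over genes 0.292, and 0.413 for the difference between responses). Of the identifiers, 51029 of 53850 had a symbol in a table built on GRCm38 (19407 of the 19594 tested), from which exon lengths also came. Levels per kilobase divide by these lengths.

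Tests used limma 3.58.1 under R 4.3.3 on log2(value + 1), for genes that reached 10 in 4 or more libraries (1 mean per group over all 16 libraries, trend on intensity, two-sided). Figures used matplotlib 3.10.9 in Python 3.11.15. The procedure was tested on simulated data. The members and lists were chosen with earlier results of these data known, so no pattern already seen in them is independent support. The text names all 9 members, up to 6 genes with the smallest p of each other list, and called receptors. It also names the 3 genes most like each tested member, but only the closest for Cmklr1 and Cxcr2. Named in addition, after their values were seen, are the ligands Cx3cl1, Cxcl12 and Ccl6, and the signalling genes Gnai2 and Fgr. So are the markers Csf3r, Xist and Retnlg, and Ccr2, Cxcr1 and Ccr8 among the receptors. Some genes of the lists are counted but not reported here by name. Alternatives were pseudocounts of 0.5 and 5, other filters and scalings, the groups compared alone, voom weights, a replicate block, each library left out, and both libraries that stood apart left out.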

Additional observations from a re-analysis of the deposited data

Results flagged for a closer look

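In 5 of the 36 sets of 4 libraries (9 receptors in 4 groups), 1 library lay far from the other 3 relative to the range of its group. For continuous values, chance does this in about 1 in 20 sets. That rate does not hold for sets with many values at 0: 3 of the 5 sets have 3 libraries at 0, which gives this pattern by construction. Ccrl2 was at 1181 in male control replicate 1, against 839.8 to 860.9 in the other male controls. Cxcr2 was at 592.4 in male PLX3397 replicate 3, the library with the most S100a9, against 202.0 to 246.3 in the other males on PLX3397. Without that library, Cxcr2 averaged 224.5 ± 22.2 in males on PLX3397 (SD, n = 3), beside 202.2 ± 11.3 in male controls (SD, n = 4). Cxcr4 was at 11.93 in male control replicate 1, the 1 control library of 8 with any value. Fpr1 was at 7.949 in female control replicate 2 and Fpr2 at 4.415 in female PLX3397 replicate 4, with the other 3 libraries of each group at 0.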

How the results depend on the processing

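Over 27 alternatives, 905 of 945 values for single receptors kept their direction and their side of the test, 4 newly passed, 9 no longer passed and 27 changed sign, none of them past the test before or after. Cx3cr1 in both sexes, Ccr1 in males and Ccrl2 in females were called in all 27. Receptors called between the sexes on PLX3397 fell to 0 under quantile normalisation and with only the groups compared. Genes called in males numbered 1518 without both libraries that stood apart, against 2289 as reported. Between the sexes on PLX3397 (1064 as reported), 669 were called with no filter, 569 with equal totals, 671 with upper-quartile scaling, 467 with quantile normalisation, 44 with only the groups compared and 345 without both libraries that stood apart. Leaving out 1 library gave 332 to 1242 there, 11 to 20 between control females and males (13 as reported), and 0 to 6 for the difference between responses. For that difference (0 as reported by limma), a pseudocount of 5 gave 1 gene and leaving out both libraries gave 2. Same-numbered samples did not deviate together (correlations of -0.04 to 0.02), so they share only a number. With the replicate block, 2136 genes were called in males, 962 in females and 863 between the sexes on PLX3397, with 4, 4 and 1 of the receptors, and no call of a receptor changed. The 4 in each sex include Cxcr4, which had to differ because of the filter. Leaving out 1 library gave 3 to 5 called receptors in females and 4 to 5 in males. Low values limit Fpr1 and Fpr2, which could not be tested. The sign changes were as follows. The response difference of Cxcr4 was -0.25 with a pseudocount of 5 and -0.03 with equal totals, and -0.75 to 0.49 with 1 library left out (0.18 as reported). That of Ptafr (0.04 as reported) was -0.12 with equal totals, -0.01 with upper-quartile scaling, -0.09 with quantile normalisation and -0.1 to 0.25 with 1 library left out. That of Cmklr1 (-0.05) was 0.02 without both libraries and -0.22 to 0.12 with 1 left out. Between the sexes on PLX3397, equal totals and quantile normalisation gave -0.08 and -0.02 for Ccrl2 (0.12) and -0.07 and -0.06 for Ptafr (0.13, and -0.01 to 0.33 with 1 library left out). Cmklr1 in females (0.15) was -0.02 to 0.32 with 1 library left out. On control chow, females minus males, Cx3cr1 (0.03) was 0 to 2 decimals with equal totals and quantile normalisation and 0 to 0.1 with 1 left out, and Cxcr4 (-0.92) was -1.23 to 0. The causes of these shifts were not tested.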
